A study of Mus musculus with 2 samples.

Results

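Of 35399 sorted mouse liver immune cells, 103 carried all 3 genes of complement component C1q together with Csf1r, the receptor for the macrophage growth factor M-CSF. They were selected on the detection of these genes alone: at least 1 UMI (a counted RNA molecule) of each of C1qa, C1qb, C1qc and Csf1r, and no UMI of Cd79a, Cd3e, Ncr1 or Siglech, which mark B cells, T cells, natural killer cells and plasmacytoid dendritic cells. Barcodes had to hold at least 500 UMIs and 300 genes, with at most 10% mitochondrial UMIs. The gate took 75 of 17632 cells of the untreated library and 28 of 17767 cells of the library from mice given concanavalin A (ConA). Their label calls these cells liver macrophages, but Clec4f, which defines mouse Kupffer cells, was detected in 3 untreated and 0 ConA cells of the gate, so the cells are named below by the rule and by the genes they carry.

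Both libraries were made from wild-type (WT) C57BL/6J mice, from liver leukocytes enriched on a Ficoll gradient and sorted by flow cytometry as CD45+ cells. In the treated group ConA, a jack bean lectin used as a T cell mitogen, was injected by vein weekly for 3 weeks at a dose of 10 mg/kg, which the study describes as a model of immune tolerance. Age-matched untreated mice were the controls. The age, the number of mice and any pooling are not given in the sources used here. Each group is 1 library, so no difference below has a replicate check and none carries a p-value. Intervals are 95% and cover counting error only.

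C1q is the recognition molecule of the classical complement pathway, and most of it is made by tissue macrophages rather than by the liver parenchyma. In the mouse liver the resident macrophages, Kupffer cells, sit in the sinusoids, express Clec4f, Timd4, Vsig4, Cd5l and Marco, and clear particles and aged red cells from the blood. Macrophages that derive from recruited monocytes keep for a time the monocyte chemokine receptors Ccr2 and Cx3cr1 and gain Ms4a7.

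The gate held 0.425% of untreated cells (Clopper-Pearson interval 0.335 to 0.533) and 0.158% of ConA cells (0.105 to 0.228). In ConA the share was 2.70-fold lower, which is -1.43 on the log2 scale (-2.11 to -0.79). A gate drawn on thinned counts did not show that difference. With each cell thinned to 1000 UMIs before the gate, 17 of 16373 untreated cells (0.104%) and 20 of 16874 ConA cells (0.119%) passed, a log2 ratio of 0.19 (-0.82 to 1.21). Thinning left out 1259 and 893 shallower cells, among them 3 and 2 gate cells. It also removed UMIs of C1q and of the excluded genes, so the thinned gate is not a subset of the first. The part of depth in the lower ConA share was not tested. The denominator also turned the direction: of Csf1r-positive cells without the excluded genes, the gate took 75 of 2646 untreated and 28 of 731 ConA cells, a log2 ratio of 0.43 (-0.25 to 1.08).

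Cells of other lineages met the same 4 detections at a low rate. Among B cells (Cd79a and Cd79b detected), 5 of 4225 untreated cells (0.118%, 0.0384 to 0.276, median depth 2987 UMIs) and 4 of 3722 ConA cells (0.107%, 0.0293 to 0.275, 3494.5 UMIs) held all 4 genes. Among T cells (Cd3e and Trac detected, median depths 4463 and 4251 UMIs) the counts were 0 of 2277, which allows a share of up to 0.132%, and 2 of 5153 (0.0388%). The untreated gate share lay above the interval of B cells, and the ConA gate share lay within it. The rule fixed at least 3 C1q UMIs per gate cell, and the cells held a median of 31 (3 to 264) in the untreated library and 72 (6 to 211) in the ConA library. B cells with C1qb, which no such minimum selected, had a median of 1, and 7 untreated and 5 ConA B cells held 10 or more C1q UMIs.

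Gate cells were deeper than other cells, with medians of 7461 and 6811.5 UMIs against 3128 and 3471 for all kept cells. At the edge of the rule, 12 untreated and 4 ConA gate cells had a C1q gene at 1 UMI, and 15 and 6 had Csf1r at 1 UMI. Just outside it, 50 untreated and 5 ConA cells had only 2 of the 3 C1q genes, and 5 and 7 had no Csf1r. Another 21 and 29 cells met everything except that they held an excluded gene, most often Cd79a (15 and 20 cells). Of the 21 and 29 cells, 7 and 18 carried a Kupffer gene. The libraries shared 82 barcodes, none of them (0) in the gate. Hbb-bs, a haemoglobin chain, exceeded 5 UMIs in 7.30% of untreated and 95.7% of ConA cells, and in 6 of 75 and 26 of 28 gate cells. Its part in the results below was not tested.

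Most untreated gate cells carried monocyte-derived genes without a Kupffer gene, and most ConA gate cells carried at least 1 Kupffer gene. At least 1 of the 5 Kupffer genes was detected in 22 of 75 untreated cells (29.3%, 19.4 to 41.0) and in 24 of 28 ConA cells (85.7%, 67.3 to 96.0). Cd5l was detected in 21 of these 22 and 23 of these 24 cells. At least 2 of the 5 were detected in 16 of 75 untreated (interval 12.7% to 32.3%) and 7 of 28 ConA cells (10.7% to 44.9%). The contrast thus held for at least 1 Kupffer gene, mostly Cd5l, and was not seen for 2 or more. At least 1 of Cx3cr1, Ccr2 and Ms4a7 was detected in 58 untreated cells (77.3%) and 11 ConA cells (39.3%). Both kinds of gene were present together in 7 cells of each library. Monocyte-derived genes alone were found in 51 untreated and 4 ConA cells, Kupffer genes alone in 15 and 17, and neither in 2 and 0.

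**Figure D1:**
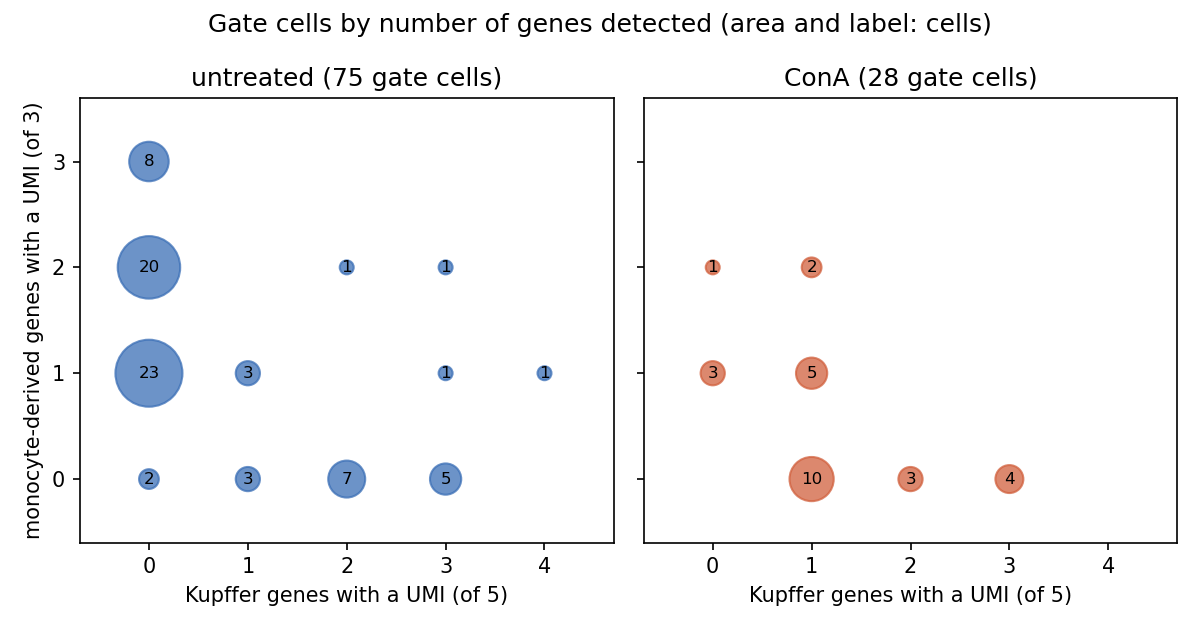
Number of Kupffer genes (horizontal axis, of 5) and monocyte-derived genes (vertical axis, of 3) with at least 1 UMI in each gate cell, for 75 untreated and 28 ConA cells. Circle area and label give the number of cells. Untreated cells gather on the left, with 51 cells holding monocyte-derived genes alone, while 24 of 28 ConA cells lie to the right of 0.

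Without thinning, cells with a Kupffer gene made up 0.125% of untreated and 0.135% of ConA cells, a log2 ratio of 0.11 (-0.78 to 1.02), an interval that reaches from a lower to a 2-fold higher share. Cells without one numbered 53 and 4, and their share was 13.4-fold lower in ConA (log2 -3.74, -5.67 to -2.30). After thinning to 1000 UMIs the gate took 4 untreated and 18 ConA cells with a Kupffer gene, and 13 and 2 cells without one. The Kupffer gene was called before thinning. The excluded genes were judged on the thinned counts, so cells outside the full-depth gate could enter. The C1q-negative classical monocyte gate (Ly6c2 and Ccr2) was lower in the same direction, 1640 against 291 cells, a log2 ratio of -2.51 (-2.69 to -2.32). The non-classical monocyte gate (Ace or Treml4, no Ly6c2) held 92 and 110 cells, a log2 ratio of 0.25 (-0.17 to 0.66).

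Single genes differed in how far they followed that pattern. Cd5l, a secreted scavenger-receptor protein of tissue macrophages, was detected in 21 of 75 untreated cells (28%) and in 23 of 28 ConA cells (82.1%). Timd4, a phosphatidylserine receptor for dying cells, was detected in 12 and 5 cells, and Vsig4, a receptor for complement C3 fragments, in 10 cells and 1 cell. Marco, a scavenger receptor, was found in 1 and 6 cells. Clec4f, the C-type lectin that defines mouse Kupffer cells, was found in 3 untreated cells with 28 UMIs, of which 1 cell held 21, and in 0 of 28 ConA cells, which allows up to 10.7% of cells with a UMI at this depth and does not bound expression.

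Among monocyte-derived genes, Ccr2 was detected in 48 untreated (64.0%) and 9 ConA (32.1%) gate cells, Cx3cr1 in 29 (38.7%) and 4 (14.3%), and Ms4a7 in 19 (25.3%) and 1 (3.57%). With every gate cell thinned to 2000 UMIs, which left out 6 and 4 cells, Cd5l was detected in 14.5% and 79.2%, Ccr2 in 55.1% and 29.2%, and Cx3cr1 in 13.04% and 0%. These shares come from 1 random draw and vary between draws. In a separate draw on the Kupffer-gene-positive cells alone, Cx3cr1 was detected in 9.09% of the ConA cells. The Kupffer genes were nearly absent from Csf1r-positive cells without C1q. There Cd5l was detected in 2 of 2372 untreated and 2 of 671 ConA cells, Timd4 in 0 and 2, and Clec4f in 3 and 0, with 21 of its 23 UMIs in 1 cell. Ccr2 was detected in 72.8% and 64.5% of those same C1q-negative cells.

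**Figure D2:**
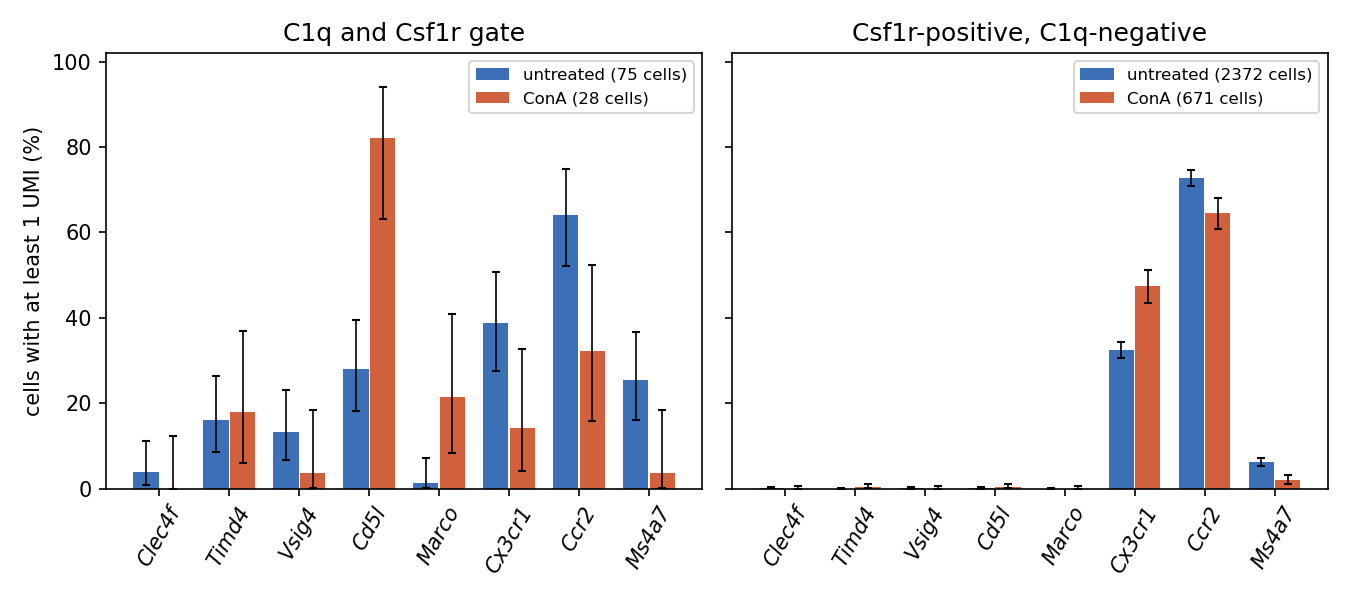
Percent of cells with at least 1 UMI of each of 5 Kupffer genes and 3 monocyte-derived genes (horizontal axis), in the gate (left) and in Csf1r-positive cells without C1q (right). Bars are the untreated and ConA libraries and error bars are 95% Clopper-Pearson intervals. Cd5l stands at 28% and 82.1% in the gate and close to 0 outside it, while Ccr2 is common in both panels.

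The Kupffer-gene-positive cells were mostly not Clec4f cells. In 17 of 22 untreated and 20 of 24 ConA cells they carried at least 6 of 18 genes that are known from resident macrophages of the peritoneal cavity, among them the transcription factor Gata6, the lubricating proteoglycan Prg4 (lubricin) and the lipoxygenase Alox15. The list was written after these cells had been seen, so its counts are a description of these cells. The distribution had 2 separate parts. Cells with 6 or more held a median of 15 of the 18 genes in the untreated and 12 in the ConA library, and the remaining 5 and 4 Kupffer-gene-positive cells held at most 1. Of the gate cells without a Kupffer gene, 1 of 53 untreated and 0 of 4 ConA cells reached 6, and of the 1640 and 291 classical monocytes none did.

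**Figure D3:**
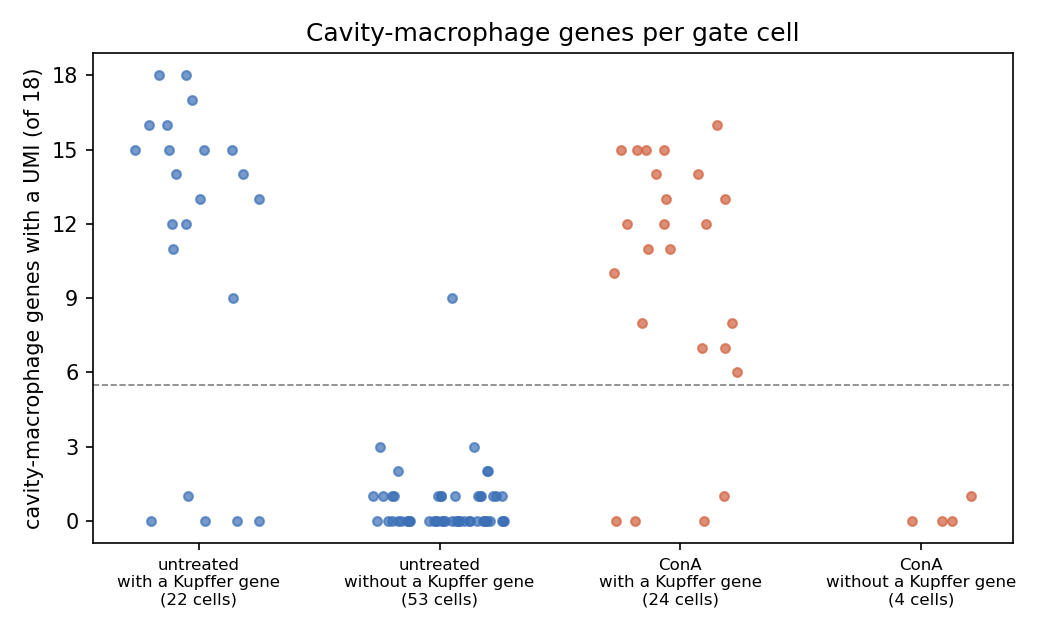
Number of 18 cavity-macrophage genes with at least 1 UMI (vertical axis) in each gate cell, 1 point per cell, split by library and by the presence of a Kupffer gene, with random horizontal scatter. The dashed line separates cells with 6 or more genes. In the 2 columns with a Kupffer gene, 17 of 22 and 20 of 24 cells lie above it, and the rest lie at 0 or 1 gene.

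Prg4 was present in 17 of 22 untreated and 20 of 24 ConA Kupffer-gene-positive cells, at 8382 and 5825 CPM (UMIs scaled to a common total per group of cells). Alox15 was present in 17 and 19 of them at 3025 and 1751 CPM, and Gata6 in 11 and 10. Of all Prg4 UMIs in the libraries, 64.9% in the untreated and 51.2% in the ConA library came from the gate. Saa3, an acute-phase serum amyloid A protein, was at 3610 and 6541 CPM, with 203 of the 562 untreated UMIs in 1 cell. Ednrb, the endothelin B receptor, was detected in 17 and 20 cells.

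Cells with many cavity genes also lay outside the gate. In the whole libraries 26 untreated and 41 ConA cells held at least 6 of the 18 genes, of which 18 and 20 were in the gate. Of the 8 and 21 outside it, 6 and 16 held an excluded gene.

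The other 5 untreated Kupffer-gene-positive cells held the 3 Clec4f cells, with Clec4f at 1534 CPM. In these 5 cells Slc40a1, the iron exporter ferroportin of red-cell-clearing macrophages, stood at 2849 CPM and was detected in 4 cells, and the haem-induced regulator Spic in 3. Itgam, the integrin CD11b, had 0 UMIs in them, but was detected in all 17 untreated and all 20 ConA cells with 6 or more cavity genes, at 1099 and 1249 CPM. Slc40a1 had 0 UMIs in those 17 and 20 cells. The 4 remaining ConA cells had no Clec4f, Slc40a1 in 1 cell, and Cx3cr1 in 3.

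Markers of lymphocytes and neutrophils were low against their library-wide levels in the Kupffer-gene-positive cells, and those of several other cell types were not. Summed over 9 T cell markers the level was 3.21% of the library-wide level in the untreated and 5.16% in the ConA library, with Cd3e at 0 in both by the rule and Cd3d at 0 in the untreated cells. For 8 B cell markers it was 4.48% and 6.01%, and for 7 natural killer markers 3.16% and 6.17%. For 10 neutrophil markers it was 6.68% and 7.98%, with Ly6g at 0 in both. Still, 22 of 22 and 23 of 24 cells held 2 or more neutrophil markers, which summed to 1542 and 674 CPM. Hepatocyte markers summed to 416% and 1218% of the library level, with 4 and 3 of 9 detected and Apoa2, Ttr, Apob, Fgb and Cyp2e1 at 0 in both. Sinusoidal endothelial markers summed to 147% and 336% with Stab2, Clec4g, Egfl7 and Aqp1 at 0 in both, and cDC2 markers to 145% and 130% with Flt3 at 0 in both. Few cells held 2 or more markers of these types. For hepatocytes it was 6 of 22 and 2 of 24 cells, for endothelium 1 and 4, and for cDC2 3 and 3. Stellate and fibroblast markers summed to 801% and 211%, which is 2 UMIs in each library. Erythroid markers stood at 41.9% and 16.0% of the library level. Plasma cell markers stood at 31.8% and 14.9%, with 2 or more in 3 of 22 and 12 of 24 cells. Plasmacytoid dendritic cell markers stood at 69.0% and 26.2%, with 2 or more in 11 and 10 cells. The part of other cells' RNA in these values was not tested. A doublet score computed from simulated pairs marked 20 of 22 and 23 of 24 of the Kupffer-gene-positive cells. It also marked 24 of 53 and 3 of 4 of the gate cells without a Kupffer gene, against 14.5% and 15.01% of all cells. Predicted doublets were kept. Without them 31 untreated and 2 ConA gate cells are left, and whether the marked cells are doublets was not tested.

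Genes of the cavity list were among those that set the whole gate above monocytes. Against both monocyte gates in both libraries, 3.9% of 2822 genes were at least 2-fold higher in the gate in all 4 comparisons and 0.496% were lower. Prg4 led with a smallest log2 difference of 8.14, followed by Alox15 at 7.08, Saa3 at 5.59, the leukotriene C4 synthase gene Ltc4s at 5.41, Cd5l at 5.36 and Fcna, a lectin of the ficolin family, at 5.28. Pf4, a chemokine of platelets and tissue macrophages, stood at 648 and 2469 CPM in the gate against 22.4 CPM or less in each monocyte gate. Genes named by the same rule also included Ltbp1, Ednrb, Itga6, Tgfb2, C4b, Cgnl1 and Fgfr1, with smallest differences from 4.25 to 4.73. In the untreated gate these values came from a minority of cells: Alox15 was detected in 17 of 75 cells and in 0 of the 53 without a Kupffer gene, and Prg4 in 3 of those 53, with 45 of their 47 UMIs in 1 cell. The gate chose cells by their RNA, so these values are a description of it.

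Gate cells without a Kupffer gene carried classical monocyte genes and higher levels of MHC class II genes, which present antigen to CD4 T cells. In the untreated library 45 of 53 held Ccr2 UMIs and 45 held Ly6c2, the genes by which the classical monocyte gate was drawn. Compared with the 1640 classical monocytes of that library, 7 of 11 MHC class II genes were at least 2-fold higher and 0 lower (median log2 1.76), where 3.39% of 8301 genes were higher, 4.39% lower and the median of all was -0.04. H2-Aa, an MHC class II chain, was at 5202 against 992 CPM (log2 2.39), Cd74, the invariant chain, at 12062 against 2700 CPM (2.16), and the class II regulator Ciita at 202 against 53.0 CPM (1.84). Of dendritic cell markers, which could come with class II, Cadm1 was at 95.2 against 1.74 CPM (log2 3.89) and was detected in 10 of these 53 cells, and Clec9a and Itgae in 3 cells each. Xcr1 and Cd209a were at 0, and Siglech was at 0 by the rule. Together 6 cDC1 markers summed to 139% and 6 cDC2 markers to 159% of the library level. Most of these UMIs came from genes near their level in classical monocytes. Of the 217 cDC1 UMIs, Naaa held 108 (log2 -0.05) and Wdfy4 60 (-0.24). Of the 185 cDC2 UMIs, Sirpa held 164 (0.18). The part of dendritic cells in the class II level was not tested.

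Of 13 tissue macrophage surface genes measured there, 8 were 2-fold higher and 0 lower, among them the tetraspanin Cd81 (116 against 6.18 CPM, 18 cells) and the inhibitory receptor Cd72 (78.9 against 6.18 CPM, 14 cells). Of 8 other Kupffer identity genes, 6 were higher, against 3.39% of all genes. Id3, a regulator needed for Kupffer cells, was at 504 against 139 CPM in 30 cells, and Spic at 41.8 against 7.13 CPM in 10 cells. In contrast, Fcna rested on 1 cell, and 11 of the 12 UMIs of Folr2, another Kupffer marker, lay in 1 cell. Of 22 interferon-stimulated genes 1 was higher and 0 lower, with a median of 0.14. Chil3, a chitinase-like protein of monocytes and neutrophils, was lower, at 388 against 2013 CPM (-2.36).

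The whole gate held a different mixture of cells in each library, and its levels compare those mixtures. With at least 50 CPM in 1 library, 10.4% of 4183 genes were 2-fold or more higher in ConA and 13.5% lower. With the minimum of 10 CPM that was used for gene lists, the shares were 12.9% and 13.2% of 9377 genes, with a median log2 ratio of 0.06. Ratios are log2 of CPM plus 5 in ConA over untreated, and their intervals are for the ratio without that constant. The C1q genes, which the rule used, summed to 6351 and 11224 CPM.

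Genes higher in the ConA gate included several found almost entirely in the cells with cavity genes. Olr1, a receptor for oxidised LDL, stood at 6.82 and 142 CPM (log2 3.63, 2.86 to 6.35), and all 28 ConA UMIs lay in those cells. Retnla, a resistin-like protein of alternatively activated macrophages, had 27 UMIs, 23 of them in 1 cell, and 122, of which 81 lay in 1 cell (3.61, or 2.12 without that ConA cell). Arg1, the arginine-degrading enzyme arginase, was at 68.2 and 587 CPM (3.02, 2.58 to 3.66), with 113 of its 116 ConA UMIs in cells with cavity genes.

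Saa3 stood at 996 and 6143 CPM (2.62, 2.48 to 2.77). Igfbp4, Efnb2, Slc7a2, Ephx1, Plxdc2, Rgcc, Gbp2b, Hal, Emilin1, Rnf141 and Fabp7 were also named by the rule, with log2 ratios from 2.25 to 2.77. In a list of genes of lipid-associated macrophages, 7 of 13 were higher and 1 lower (median 1.23), where 12.9% of all genes were higher and 13.2% lower. Apoe, a lipoprotein for lipid export, was at 4324 and 10121 CPM (1.23), and the galectin Lgals3 was at 851 and 364 CPM (-1.21). Within Kupffer-gene-positive cells, where 7.69% of 5149 genes with at least 10 UMIs were higher in ConA and 8.27% lower, 0 of 12 genes of this list were 2-fold higher and 1 was lower, the tetraspanin Cd9, with a median of -0.06.

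Genes lower in the ConA gate were led by interferon-induced genes. Cxcl10, a chemokine that attracts activated T cells, had 505 UMIs in 39 untreated cells, 253 of them in 1 cell, and 0 in ConA, at least 56.7-fold lower against a floor of 3 UMIs in the ConA gate cells. Cxcl9, a related chemokine, had 234 UMIs, with 137 in 1 of 6 cells, and 0 (at least 26.3-fold lower). Spon1, an extracellular matrix protein, had 261 UMIs in 41 cells and 0 (at least 29.3-fold lower). Isg15, a ubiquitin-like protein made on interferon signalling, had 1079 and 2 UMIs (log2 -6.93, -10.55 to -5.65). Ly6c2 had 1673 and 16 UMIs (-5.05, -5.95 to -4.44). Of the untreated UMIs, the 53 cells without a Kupffer gene held 490 of Cxcl10, all 234 of Cxcl9 and 256 of Spon1. They also held 991 of Isg15 and 1616 of Ly6c2, and only 4 ConA cells were of that kind. Ifit1, an interferon-induced RNA-binding protein, had 79 and 0 UMIs (at least 8.87-fold lower). Ifit2, Ifit3, Mx1, Ly6a, Ms4a4c, Stat2, Ifi213, Oasl1 and Ifi206 had 1 to 9 UMIs in ConA, with log2 ratios from -5.39 to -4.38 and upper bounds of their intervals from -3.94 to -2.83. Ly6c2, Ly6a and the Ifi and Ifit families have close copies, and reads shared between copies make their counts uncertain.

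Promoter stretches of 5 of these genes are shown because interferon-induced genes led the genes lower in the ConA gate. The motif GAAA, any 2 bases, GAAA, a core of the element bound by interferon regulatory factors, was searched on both strands of RefSeq promoters (GRCm38.p6, 250 bases before to 50 after the start). It was found in 3.44% of 32851 promoter entries and in those of 9 of 21 genes, out of 29 named as lower in any of the 3 sets of cells, that matched an entry. Each line gives 50 bases in the direction of the gene, with non-overlapping matches in capitals. They read TTTC, 2 bases, TTTC where the motif lies on the other strand. In the Isg15 line the 2 lower-case bases between the matches lie in a further match that overlaps both.
Cxcl10 (chr5:92349073-92349122, minus strand): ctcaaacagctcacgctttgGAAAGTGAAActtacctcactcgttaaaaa
Isg15 (chr4:156200867-156200916, minus strand): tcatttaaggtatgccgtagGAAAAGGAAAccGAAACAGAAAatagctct
Ifit3 (chr19:34583353-34583402, plus strand): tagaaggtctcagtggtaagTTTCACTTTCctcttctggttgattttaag
Ifit1 (chr19:34640765-34640814, plus strand): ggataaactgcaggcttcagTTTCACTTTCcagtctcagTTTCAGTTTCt
Stat2 (chr10:128270256-128270305, plus strand): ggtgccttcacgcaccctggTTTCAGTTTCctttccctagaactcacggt

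A match is a run of letters and not a measured binding site. The entries of Cxcl9, Ifit2, Oasl1, Oasl2 and Irf7 hold no such run in this window.

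Interferon-stimulated genes were lower in ConA over the gate and within its Kupffer-gene-positive cells. Over the whole gate 22 of 22 interferon-stimulated genes were 2-fold or more lower and 0 higher, where 13.2% of all genes were lower. Their median log2 ratio was -3.98, and -3.92 with the 3 genes at 0 set to their bounds. Among the 22 and 24 Kupffer-gene-positive cells it was 21 of 21 (median -3.44, or -2.93 with 5 genes at their bounds) against those 8.27% of all genes. Among the 17 and 20 cells with 6 or more cavity genes it was 18 of 18 (median -3.45, or -2.86 with 5 genes at their bounds), where 8.26% of 4673 genes were lower and 8.54% higher. Each set counts only the list's members that passed its minimum. Across all kept cells Isg15 stood at 1030 and 72.6 CPM and Irf7 at 447 and 34.6 CPM. The part of free RNA in the gate's values was not tested.

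In the cells with cavity genes Isg15 was detected in 14 of 17 untreated cells (67 UMIs) and 0 of 20 ConA cells, at least 27.1-fold lower against the 3-UMI floor. Irf7, the master regulator of interferon production, was detected in 16 of 17 and 3 of 20 cells, with 44 and 5 UMIs (log2 -3.21, -5.11 to -2.08). Slfn5, a Schlafen family protein, had 83 UMIs in 15 cells and 5 in 4 cells (-4.12), and Rtp4 had 40 UMIs in 12 cells and 3 in 3 cells (-3.68, -6.35 to -2.36). None of these 20 ConA cells carried more than 2 UMIs of Irf7, Slfn5 or Rtp4. Among Kupffer-gene-positive cells as a whole Isg15 had 88 and 0 UMIs, at least 35.0-fold lower. In the 53 untreated cells without a Kupffer gene Isg15 was higher still, at 2300 CPM in 50 cells, and the 4 ConA cells of that kind held 2 UMIs in 1 cell. The list was not counted in those 4 cells.

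**Figure D4:**
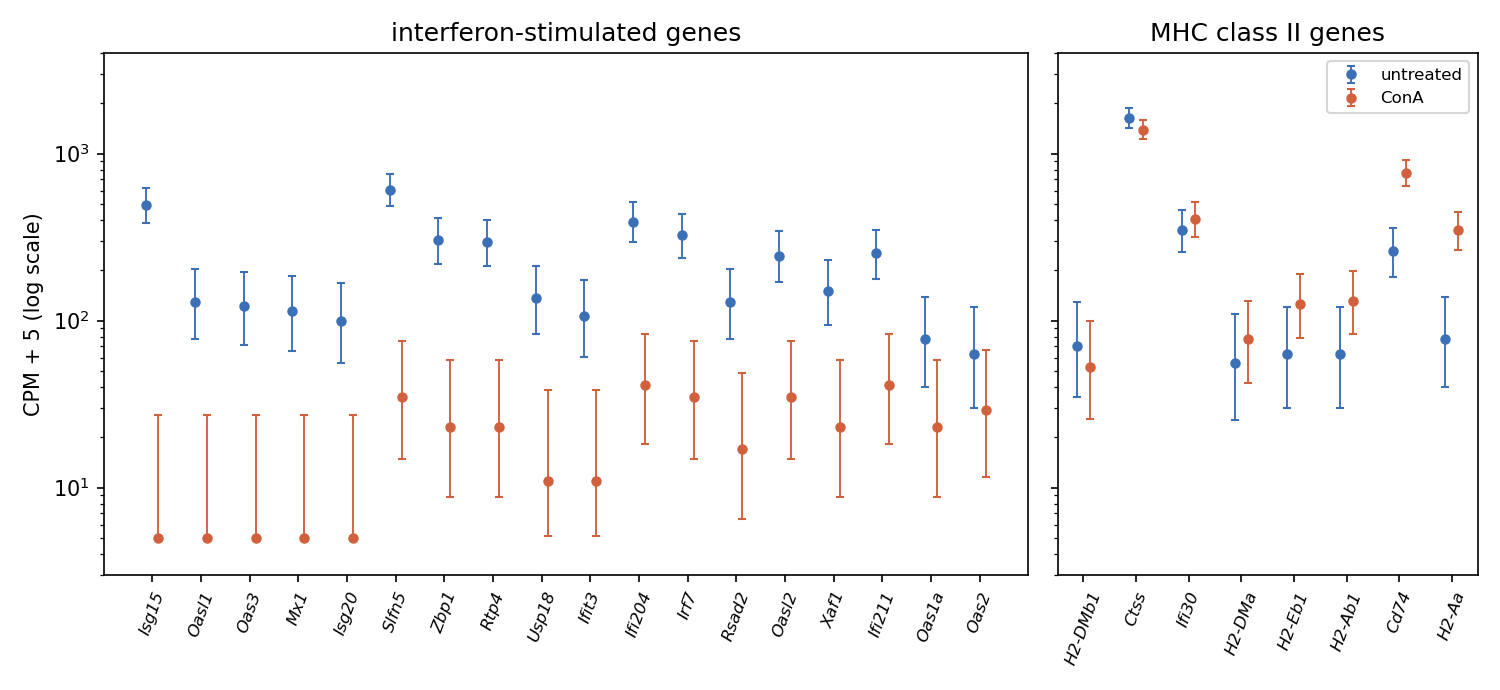
Level of interferon-stimulated genes (left) and MHC class II genes (right) in Kupffer-gene-positive cells with 6 or more cavity genes, 17 untreated and 20 ConA cells. Points are CPM plus 5 on a log axis and error bars are exact 95% Poisson intervals. All 18 measured interferon-stimulated genes lie lower in ConA, 5 of them at 0 UMIs, while Cd74 and H2-Aa lie higher.

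Genes induced by interferon gamma were lower in 17 of 18 cases over the gate (median -1.92), and 0 were higher, where 13.2% of all genes were lower. In Kupffer-gene-positive cells 7 of 13 were lower and 0 higher (median -1.05), where 8.27% of all genes were lower. Among the 7 were Cxcl10 with 15 and 0 UMIs and the T cell inhibitory ligand Cd274 with 13 and 2 (-2.49, -6.14 to -0.81). Cxcl10 was at least 5.96-fold lower there. Irf1 had 23 UMIs in each library there (log2 -0.24), and Psmb8, an immunoproteasome subunit, 43 and 39 (-0.39).

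MHC class II genes went opposite ways depending on the cells compared. Over the whole gate 9 of 10 were lower in ConA and 0 higher (median log2 -1.60), where 13.2% of all genes were lower and 12.9% higher. H2-Aa stood there at 3855 and 1260 CPM. In Kupffer-gene-positive cells 4 of 8 were higher and 0 lower (median 1.53), where 7.69% of all genes were higher and 8.27% lower. H2-Aa stood there at 128 and 899.8 CPM (2.76) and Cd74 at 418 and 2182 CPM (2.37). H2-Eb1 and H2-Ab1 were also named by the rule (2.37 and 2.28). The 4 ConA cells with fewer cavity genes held 278 of the 405 Cd74 UMIs, and in them Cd74 stood at 14556 CPM and H2-Aa at 5760 CPM. In the cells with 6 or more cavity genes 3 of 8 were higher and 0 lower (median 0.72), where 8.54% of all genes were higher and 8.26% lower. There Cd74 was detected in 12 of 17 and 20 of 20 cells, at 255 and 763 CPM (1.56, 1.03 to 2.17), and H2-Aa in 8 of 17 and 14 of 20, at 72.8 and 342 CPM (2.16, 1.25 to 3.37). For H2-Ab1 and H2-Eb1 the intervals included 0 (1.05, -0.12 to 2.50, and 0.99, -0.20 to 2.44).

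Few other genes differed within the Kupffer-gene-positive cells. With at least 50 CPM in 1 library and 30 UMIs over both, 3.69% of 2035 genes were 2-fold or more higher and 5.01% lower. Retnla had 4 UMIs in 1 untreated cell and 122 in 9 of 24 ConA cells, 81 of them in 1 cell (log2 4.43, and 2.95 without that cell). Arg1 was detected in 5 of 22 and 15 of 24 cells, at 231 and 609 CPM (1.38, 0.84 to 1.98). Pid1, a phosphotyrosine-domain adaptor, was at 392 and 1255 CPM in 15 and 23 cells (1.67, 1.27 to 2.11). Olr1 had 3 UMIs in 2 cells and 28 in 7 (2.68, 1.27 to 5.33), and Igfbp4, Id3, Cxcl1, Nsd1, Emp1, Slc7a2, Rnaset2b and Rnf141 were also higher, with log2 ratios from 1.63 to 2.21. Of the 63 ConA Id3 UMIs 48 lay in the 4 cells with few cavity genes, 27 of them in 1 cell, and its ratio was 0.79 without cells holding Ccr2 or Cx3cr1. In the cells with cavity genes Tubb6, Maf, Ccl4, Emilin1 and Lsm4 were named as well (1.61 to 1.91), and Ccl4 was at 0.52 without the ConA cell with the most UMIs.

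Lower in ConA besides interferon genes were Slc40a1, with 52 and 3 UMIs (-4.00, -6.69 to -2.74), and Cxcl13, a B cell attracting chemokine, with 179 UMIs in 10 cells and 13 in 1 cell. The Slc40a1 UMIs lay outside the cells with cavity genes in both libraries, and 118 of the Cxcl13 UMIs lay in 1 untreated cell. Vsig4 had 85 UMIs in 10 of 22 cells, 39 of them in 1 cell, and 15 UMIs in 1 of 24 (-2.68, -3.65 to -1.95, or -1.90 without the untreated cell with the most UMIs). Ms4a4c, Zbp1, Slfn1, Ifi27l2a, Ifi204, Ifi211, Oasl2 and Rnf213 made up the rest of the genes named as lower, with Stxbp3 added in the cells with cavity genes. Of the 41 untreated Ms4a4c UMIs 29 lay in 1 cell, and its ratio was -3.07, or -1.57 without that cell.

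The Kupffer genes differed in direction in the cells with cavity genes. Cd5l was detected in 16 of 17 and 19 of 20 cells, at 488 and 943 CPM (log2 0.94, 0.53 to 1.39). Timd4 was detected in 11 of 17 and 5 of 20 cells, and its level was 284 and 252 CPM (-0.17, -0.83 to 0.50), with 20 of the 42 ConA UMIs in 1 cell. Marco had 2 UMIs in 1 cell and 16 in 6 cells (2.37, 0.63 to 5.89). Detection of a Kupffer gene chose these cells, so the levels are a description.

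For complement and lysosomal genes the counts in Kupffer-gene-positive cells were near the background of 7.69% higher and 8.27% lower. Of 12 complement components and receptors measured, 0 were 2-fold higher and 0 lower (median 0.12), with C4b at 944 and 1040 CPM and the alternative pathway activator Cfp (properdin) at 1240 and 1191 CPM. Of 19 lysosomal genes 0 differed by 2-fold, and of 17 macrophage transcription factors 0 were higher and 1 lower. Apoe stood at 7778 and 10124 CPM. Of 12 inflammatory mediators 2 were higher and 1 lower (median 0.42), and in the cells with cavity genes 5 of 10 were higher and 0 lower (median 0.997), where 8.54% of all genes were higher and 8.26% lower. Ccl3 had 14 and 35 UMIs there. Cxcl1 had 6 and 31 UMIs, 12 of the 31 in 1 cell, and Ccl4 had 6 and 24, 14 of the 24 in 1 cell. The neutrophil-attracting chemokine Cxcl2 stood at 1157 and 2246 CPM in these cells, short of 2-fold. Of 17 further monocyte genes measured in the cells with cavity genes, 8 were lower and 0 higher (median -0.85), against the same 8.26% of all genes. Plac8 had 111 and 24 UMIs (-2.45), with 59 of the 111 in 1 cell (-1.61 without it). Ly6c2 had 53 and 13 (-2.23), with 32 of the 53 in 1 cell (-1.17 without it).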

How the data were processed

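Both matrices were deposited as raw UMI counts. The file headers name Cell Ranger 8.0.1, while version 6.0.1, Seurat 4.3.0 and the build mm39 stand in the submitters' processing notes. The libraries held 18088 barcodes with 71289226 UMIs (untreated) and 18762 with 73589264 (ConA). UMIs were summed over the chosen cells of each library and scaled to CPM. Shares have Clopper-Pearson intervals, and ratios have exact conditional Poisson intervals. Python 3.11.15, numpy 2.4.6, scipy 1.17.1, pandas 2.3.3 and scikit-learn 1.9.0 were used, and the computation was tested on simulated data.

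The members and lists were chosen with earlier results of these data known. The rule named up to 15 genes per direction by log2 ratio, among those with at least 50 CPM in 1 library, 30 UMIs over both and a 2-fold difference. It left out genes of the gate, mitochondrial, ribosomal, receptor segment and unnamed genes, symbols used for more than 1 gene, and genes under 25% of the level of all cells. Other list members were named for their role. The cavity list and the comparisons within subsets of the gate were added after seeing the data. Alternatives changed the gate, depth, filters, constant, cell weights and doublet removal. A gene that the rule named is not reported here.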

Additional observations from a re-analysis of the deposited data

How the results depend on the processing

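No paired analysis was possible because each group is 1 library. The log2 ratio of the gate share, -1.43, was -3.96 without predicted doublets, 0.19 after thinning to 1000 UMIs and 0.43 as a share of Csf1r-positive cells. The cause was not tested. With any 2 of the 3 C1q genes, 18.4% of untreated gate cells held a Kupffer gene, and without cells holding further lymphocyte or Ly6g UMIs 100% of 15 ConA cells did. In that last setting the log2 ratio of Timd4 over the gate was -2.15, against 1.57 otherwise. The median of MHC class II genes over the gate was -1.88 with at least 2 UMIs of each C1q gene and -1.07 with any 2 of the 3. In Kupffer-gene-positive cells it was 0.53 without cells holding Ccr2 or Cx3cr1. Genes 2-fold higher in the ConA gate numbered 437, or 279 with a constant of 20 CPM, 898 with a minimum of 20 CPM and 245 with 100 CPM; those lower numbered 564, or 923 and 348 with these minimums, where the number of genes tested changes too. In Kupffer-gene-positive cells 75 genes were higher, or 132 with each cell weighted equally. Levels could not be computed without predicted doublets, which leaves 2 ConA cells, or with the exclusion of cells over 5 Hbb-bs UMIs, which leaves 0. The small number of cells limits every level, and single cells held much of several genes' UMIs.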
